A study of Mus musculus with 4 samples.

Results

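Strong T1-only open regions are stretches of accessible chromatin that both T1 libraries of MPP3 cells held clearly and that neither T2 library held at all. MPP3 cells are multipotent progenitors of the bone marrow that lean towards granulocytes and monocytes. Accessibility was measured by ATAC-seq, in which a transposase cuts exposed DNA and tags the ends for sequencing. All 4 libraries came from sorted MPP3 cells of WT-iMOS mice 3 months of age, 2 with the genotype label WTiMOS_T1 and 2 with WTiMOS_T2, and the series concerns the transcription factor Bcl11a. What the iMOS allele, T1 and T2 stand for, which promoter drives any transgene, and how many animals gave each library are not stated in the labels. Peak names begin with WG in both T1 lists and with MG in both T2 lists, which no label explains, so whether the groups also differ in genotype cannot be told from these sources. The files of each pair carry 1 replicate number with 2 suffixes, so the spread between replicates may be technical.

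Peaks of the authors' lists that shared 1 bp or more were joined into regions on chromosomes 1 to 19, X and Y, which gave 77914 regions on mouse build mm10. A region was taken when both T1 lists had a peak there with −log10 q of at least 10, and neither T2 list had any peak. The −log10 q is the authors' measure of a peak's significance against local background within its own library, not of its height. By this rule 688 of 77914 regions (0.883%) were strong T1-only. The same rule with the groups exchanged gave 1976 strong T2-only regions (2.54%). The rule itself used the T1 and T2 peaks, so these counts and the strengths below are descriptions, and 2 libraries against 2 allow no exact two-sided p below 0.333. No test between groups was therefore made. The T2 lists were longer, with 66764 and 62704 peaks against 58454 and 54045 in T1, and no read depth is given. A missing peak is a call below the authors' cut-off of −log10 q of 2, not a measured absence of signal.

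Open chromatin away from gene starts often marks enhancers, which cell-type factors such as PU.1, CEBP, RUNX and GATA proteins bind, while open gene starts are shared by many cell types. Progenitors commonly hold some regions of later lineages open before those genes are strongly expressed. As a check of the cell type, all 8 blood progenitor genes examined that have a listed promoter (Ptprc, Kit, Cd34, Cd48, Flt3, Cebpa, Runx1 and Csf3r) had a peak over it in all 4 libraries. Of 4 genes of other tissues, Pdgfra and Krt8 had none in any library, Epcam had 1 in T1 replicate 1, and Neurod1 had 1 in each T2 library.

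Few strong T1-only regions lay on gene starts. Promoter windows, from 250 bases before to 50 bases after each start, came from RefSeq on GRCm38.p6, the assembly of mm10, with 32851 windows of 27025 genes on all these chromosomes but 18. Of the 688 regions, 11 (1.60%) overlapped such a window, against 3.29% of the strong T2-only regions. Of the regions with a peak in all 4 libraries and both T1 values of at least 10, 27.2% did. Among the genes whose windows the 11 regions overlapped were 5 protein-coding genes. They are S100a8, Ly6c2, C3, Tifab and Samd9l, which were chosen for their position after it was seen. Their sequences are shown because these are the gene starts where an open T1 region stood without a T2 peak. Each runs 5′ to 3′ with the gene, from 250 bases before the start to 30 bases after it. Capitals mark matches, on either strand, to the short motifs named below.
S100a8, chr3:90668821-90669100, plus strand: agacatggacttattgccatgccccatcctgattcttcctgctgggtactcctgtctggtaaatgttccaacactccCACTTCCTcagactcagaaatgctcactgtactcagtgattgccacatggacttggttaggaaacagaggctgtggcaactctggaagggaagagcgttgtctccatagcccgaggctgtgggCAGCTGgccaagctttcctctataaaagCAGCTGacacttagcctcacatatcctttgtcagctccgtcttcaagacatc
Ly6c2, chr15:75111942-75112221, minus strand: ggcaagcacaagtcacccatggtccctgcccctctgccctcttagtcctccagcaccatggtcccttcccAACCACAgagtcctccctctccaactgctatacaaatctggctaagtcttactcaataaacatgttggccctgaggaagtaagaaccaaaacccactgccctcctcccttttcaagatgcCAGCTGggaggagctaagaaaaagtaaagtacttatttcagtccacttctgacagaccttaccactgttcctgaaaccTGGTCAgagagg
C3, chr17:57228107-57228386, minus strand: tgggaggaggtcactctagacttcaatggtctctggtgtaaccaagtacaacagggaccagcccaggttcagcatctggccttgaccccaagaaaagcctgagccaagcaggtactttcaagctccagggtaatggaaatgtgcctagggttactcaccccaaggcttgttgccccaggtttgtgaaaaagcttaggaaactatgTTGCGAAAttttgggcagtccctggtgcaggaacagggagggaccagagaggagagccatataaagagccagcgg
Tifab, chr13:56178856-56179135, minus strand: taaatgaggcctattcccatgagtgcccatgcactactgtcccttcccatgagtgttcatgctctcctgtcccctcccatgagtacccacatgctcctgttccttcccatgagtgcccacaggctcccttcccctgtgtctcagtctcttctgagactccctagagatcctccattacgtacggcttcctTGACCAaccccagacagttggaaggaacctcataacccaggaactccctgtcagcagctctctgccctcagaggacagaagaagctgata
Samd9l, chr6:3399542-3399821, minus strand: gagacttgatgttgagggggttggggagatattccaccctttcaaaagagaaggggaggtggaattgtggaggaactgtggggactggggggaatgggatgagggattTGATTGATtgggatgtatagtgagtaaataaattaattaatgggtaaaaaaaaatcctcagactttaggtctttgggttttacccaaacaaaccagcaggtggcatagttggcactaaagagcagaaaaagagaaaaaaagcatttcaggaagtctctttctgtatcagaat

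S100a8 encodes a subunit of calprotectin, the calcium-binding protein of neutrophils and monocytes. Its region (chr3:90668851-90669280) had −log10 q of 14.5 in T1 replicate 1 and 14.7 in T1 replicate 2, and 257 bases of the 300-base promoter window lay under both peaks. The 2 summits lay on either side of the start site, at 137 in T1 replicate 1 and -77 in T1 replicate 2. No other region was assigned to S100a8, and the nearest T2 peak was 15518 bp away. S100a9, the gene of the other calprotectin subunit, lies beside it, and a second strong T1-only region (chr3:90686726-90687162) stood 5468 bp outside S100a9 with −log10 q of 15.5 and 13.2. Both T1 libraries thus had these peaks, while within 25 kb of the S100a8 start T2 replicate 1 had 1 peak and T2 replicate 2 had none. The S100a8 promoter holds the PU.1 and ETS motif AGGAAGTG, on the opposite strand, from position -173, counted from the start site. It also holds the E-box CAGCTG from -50 and from -22. The first motif stood in 4.07% of all promoter windows and the second in 16.3%.

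Ly6c2 encodes a surface glycoprotein of monocytes and granulocytes. Its region (chr15:75111873-75112133) had −log10 q of 17.9 and 14.9, and both summits lay within 4 bases of the upstream of its 2 listed start sites. The Ly6 family holds near-identical copies, so reads at this place may belong partly to another copy. The nearest T2 peak was 4480 bp away, in T2 replicate 1. The promoter holds the RUNX motif TGTGGTT, on the opposite strand, from -180 and CAGCTG from -60. It also holds the BCL11A motif TGACCA, on the opposite strand, from 19. The RUNX match lies outside the T1 peaks, which began at -154 in T1 replicate 1 and -162 in T1 replicate 2. Of all promoter windows 5.27% held the RUNX motif and 13.6% the BCL11A motif.

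C3 encodes the central complement component. Its region (chr17:57228118-57228423) was near the threshold, with −log10 q of 10.1 and 14.0, and the summits were at -89 and -87 from the start site. The CEBP motif TTGCNNAA matched from -45, as did its stricter form TTGCGNAA with the same letters. Promoter windows with the wider form made up 10.8% of all and those with the stricter form 0.798%. Within 25 kb of the C3 start there were 5 and 4 peaks in T1, the T1-only peak included, and 6 and 5 in T2. Most of the other peaks were common to both groups. Both T2 libraries also had a peak that T1 lacked, from 4538 and 4378 bp past the start, with −log10 q of 6.10 and 5.81.

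Tifab encodes a TIFA-related inhibitor of innate immune signalling, and Samd9l an interferon-inducible growth regulator of haematopoietic cells. The Tifab region (chr13:56178468-56179050) had −log10 q of 19.7 and 29.5 and was the strongest of the 5 in T1 replicate 2. The Samd9l region (chr6:3399416-3399651) had 21.2 and 20.04. Tifab lay among peaks of both groups, with 8 and 7 peaks within 25 kb in T1 and 7 in each T2 library. Samd9l had no other T1 peak in that span, where T2 replicate 1 had 2 peaks and T2 replicate 2 had 1. Of these, 1 in each T2 library stood 12565 and 12570 bp past the start, with −log10 q of 18.3 and 18.4, and the other, with 4.40, lay 539 bp from the T1 region. The Tifab promoter matched TGACCA from -60, and that of Samd9l the HOX-PBX motif TGATTNAT from -142, which 3.22% of all windows held. The Samd9l match lies outside the T1 peaks, which began at -80 in both T1 libraries. Of the 12 motifs searched, the letters AGATAA (the motif of GATA factors), the IRF motif and the CTCF core matched none of the 14 promoter windows that strong T1-only regions overlapped, predicted genes included. The AP-1 motif (TGANTCA) and the ETS-IRF motif each matched 1 of the 14. Both matches were in the window of the same predicted gene and lay outside its T1-only region. Of that window 0 bases lay under both T1 peaks. These 14 windows are too few to set a share against that of all windows.

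**Figure D1:**
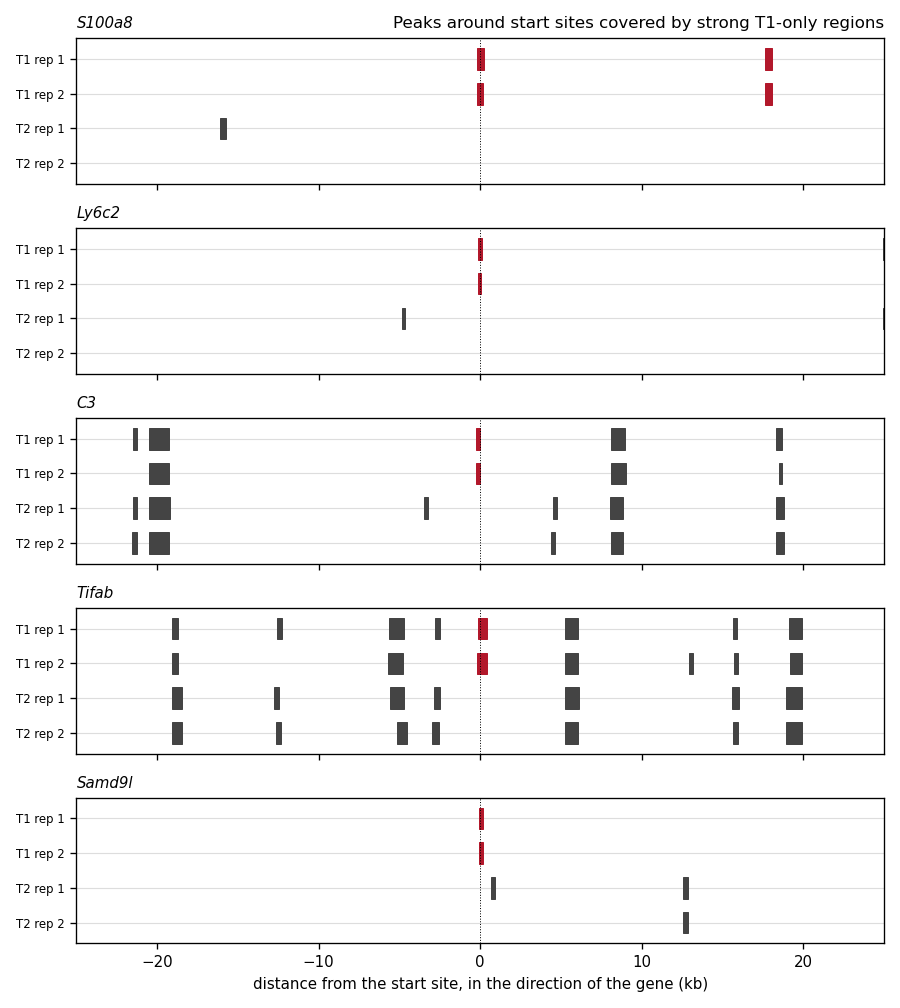
Peaks of the 4 libraries within 25 kb of the start sites of S100a8, Ly6c2, C3, Tifab and Samd9l, drawn to scale in kb from the start site in the direction of each gene. Red bars are strong T1-only regions and dark bars all other peaks. A red bar stands at each start site in both T1 libraries, and no bar stands there in either T2 library.

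Within the 2 T1 libraries the regions were of moderate strength. In T1 replicate 1 their −log10 q ran from 10.01 through a median of 19.0 to 70.5, and in T1 replicate 2 from 10.004 through 15.7 to 68.5. The median region ranked in the top 56.8% and 59.9% of the 2 peak lists, and the highest-ranked in the top 18.6% and 15.4%. None was thus among the strongest peaks of its library. Values were higher in T1 replicate 1 for 479 regions and in T1 replicate 2 for 209. Across the 688 regions Spearman's rank correlation between the 2 T1 libraries was 0.578. It was 0.937 across the 36356 regions that passed the same T1 threshold and had a peak in all 4 libraries. The values of those regions span a wider range. These correlations run across regions of the same libraries and are descriptions. The summits of the 2 T1 peaks were a median of 26 bp apart, and 502 of the 688 pairs (73.0%) were within 50 bp. Each region was a single peak in both T1 libraries, except 1.

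**Figure D2:**
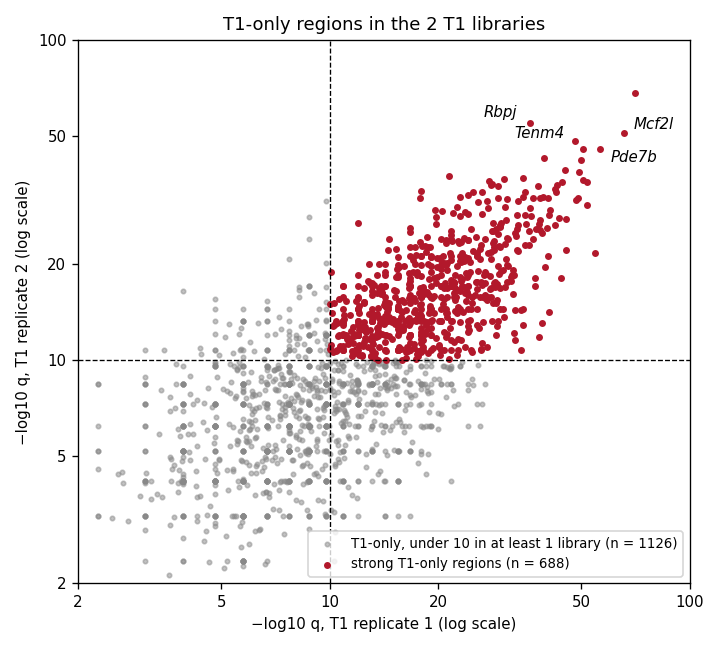
Each point is a region with a peak in both T1 libraries and none in T2, placed by its −log10 q in T1 replicate 1 and T1 replicate 2 on log axes. Red points are the 688 strong T1-only regions, grey points the 1126 under 10 in at least 1 library, and dashed lines mark the threshold of 10. The cloud continues across the threshold without a gap.

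The threshold did not fall in a gap. The 3 regions just inside it were near Emc7 (15.9 and 10.004), Pde7b (10.01 and 10.8) and Pdzd8 (13.6 and 10.01). Just outside were regions near Mrvi1 (15.2 and 9.98), Cdk6 (11.1 and 9.97) and Arl9 (18.5 and 9.97). Another 1126 regions were T1-only with a value under 10 in at least 1 T1 library.

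The share of strong regions that stood without a peak in the other group fell with strength. Of the 37861 regions with −log10 q of at least 10 in both T1 libraries, 688 (1.82%) had no T2 peak, 817 had a peak in 1 T2 library and 36356 in both. Where the lower T1 value was 10 to 12, 5.93% had no T2 peak (95% Wilson interval 5.14 to 6.85, 174 of 2932 regions). From 20 to 30 the share was 1.65% (1.37 to 1.98), and from 30 to 50 it was 0.389% (0.271 to 0.558). Above 100 it was 0 of 4456 regions. The exchanged rule gave 1976 of 44931 (4.40%), with 17.4% from 10 to 12 (16.2 to 18.7) and 0.712% from 30 to 50 (0.558 to 0.908). The intervals cover counting error over regions only. With all lists shortened to their 54045 strongest peaks, the counts were 1083 T1-only and 2149 T2-only regions.

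**Figure D3:**
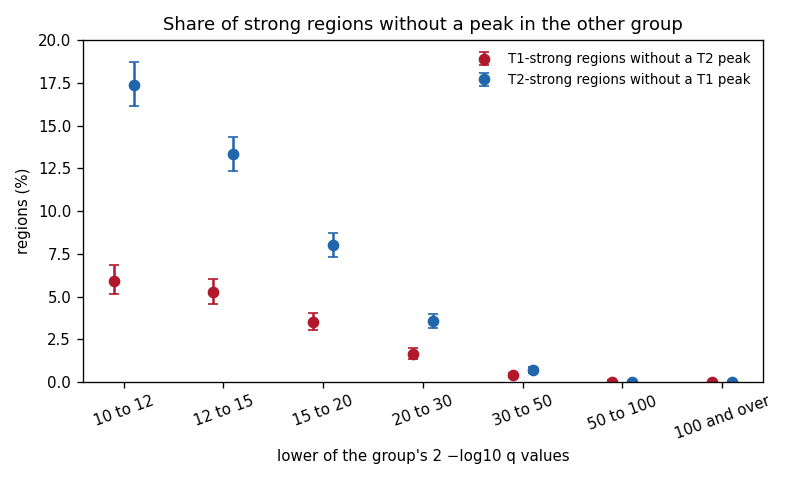
The y axis is the percentage of strong regions that had no peak in the other group, with 95% Wilson intervals, and the x axis is the lower of the 2 −log10 q values of the group. Red is T1 and blue is T2. Both series fall towards 0, from 5.93% in T1 and 17.4% in T2 in the lowest class.

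The rule can also be applied to 1 library of each group and read in the 2 it left out. Choosing with T1 replicate 1 and T2 replicate 1, 2243 regions had −log10 q of at least 10 in the first and no peak in the second. Of these, 64.3% (95% Wilson interval 62.3 to 66.3) had a peak in T1 replicate 2 and 30.2% (28.4 to 32.2) in T2 replicate 2, at any strength. A peak in the held-out T1 library alone was seen at 1023 and in the held-out T2 library alone at 258. By definition these 1023 include all 688 strong T1-only regions. With T1 replicate 2 and T2 replicate 1 as the choosing pair, 80.6% of 1435 regions had a peak in T1 replicate 1 and 30.7% in T2 replicate 2. The other 2 choices gave 65.4% against 44.3% of 2810 regions and 80.6% against 45.7% of 1833. In all 4 choices the held-out T1 library had the peak more often, yet up to 45.7% of regions chosen as T1-only had one in the held-out T2 library. Where both choosing libraries had a peak, the held-out libraries had one at 94.7% to 98.1% (T1) and 97.1% to 98.9% (T2). The 4 choices share libraries and are not independent of each other. The same libraries defined the strong T1-only regions, so the choices are no replication in new libraries. The libraries of a pair may be technical replicates, so a peak found in both need not reflect the group.

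**Figure D4:**
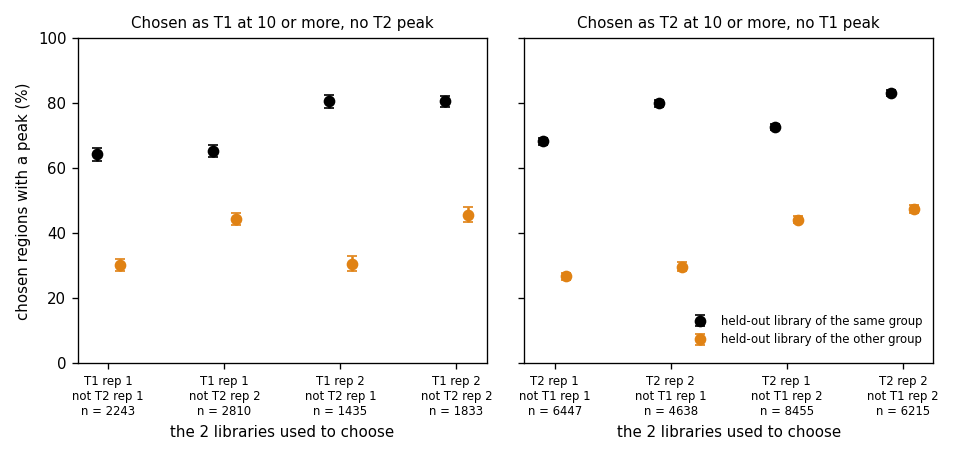
Percentage of regions, chosen from 1 library of each group, that had a peak in the 2 libraries not used, with 95% Wilson intervals. Left, regions chosen as T1-only, right, regions chosen as T2-only, with the choosing libraries and the number of regions under each pair of points. Held-out libraries of the same group (black) stand above those of the other group (orange) in all 8 choices.

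Most strong T1-only regions lay inside genes or between them, away from gene ends. Of the 688, 369 (53.6%, 95% Wilson interval 49.9 to 57.3) overlapped a protein-coding gene body. A further 215 (31.3%, 27.9 to 34.8) had a protein-coding gene within 50 kb, and 104 (15.1%, 12.6 to 17.99) had none. For the 36356 shared regions that passed the same T1 threshold the gene body share was 67.9% (67.5 to 68.4). For the 1976 strong T2-only regions it was 52.6% (50.4 to 54.8). Exons and introns were not used here. Only 26 (3.78%, 2.59 to 5.48) came within 1 kb of an end of a protein-coding gene or of one of its listed start sites. It was 35.2% (34.7 to 35.7) of the shared regions, 8.15% (7.02 to 9.44) of the T2-only ones and 22.4% of all regions. Of the 1126 T1-only regions under the threshold it was 5.86% (4.63 to 7.39). For the 817 strong T1 regions with a peak in 1 T2 library it was 7.22% (5.64 to 9.20). A low share was thus not particular to the strong T1-only regions. The distance from the region's centre to the nearest listed start site had a median of 19076 bp, against 10220 bp for shared regions. Listed start sites cover 79.9% of protein-coding genes.

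Shared regions are stronger in T1, so the gene-end share was also read within classes of strength. Where the lower T1 value was 10 to 15, it was 4.70% (2.95 to 7.39) of 362 strong T1-only regions and 17.4% (16.5 to 18.4) of 5689 shared ones. From 15 to 20 the shares were 3.83% (1.87 to 7.68) and 18.2% (17.1 to 19.3), and from 20 to 30 they were 0.893% (0.158 to 4.88) and 21.9% (20.9 to 22.9). From 30 to 50 the 29 T1-only regions gave 3.45% (0.611 to 17.2) and the shared ones 31.5% (30.5 to 32.6). The intervals were apart in every class, but they cover counting error over regions only. The strong T1-only regions were also narrower: below a lower value of 20, the median T1 replicate 1 peak was 383 bp wide, against 502 bp for shared regions of the same class. Distances ran from region edges, so classes of strength do not match width. With windows around summits, the gene-end share of T1-only regions of all strengths was 10.5%. It was not computed for shared regions with those windows.

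**Figure D5:**
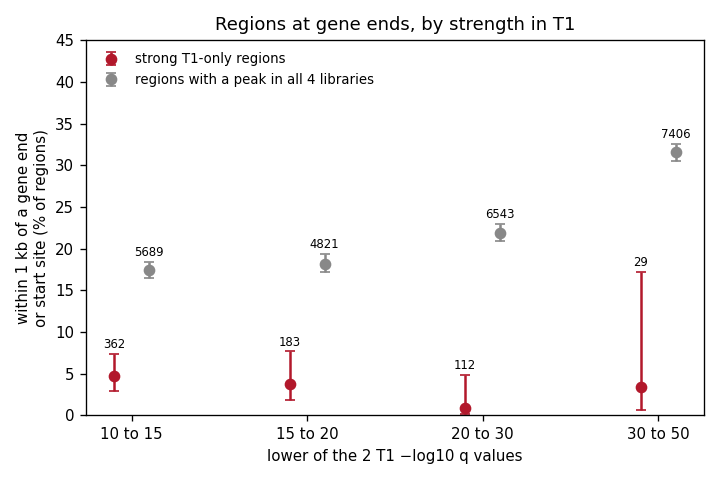
Percentage of regions within 1 kb of an end or listed start site of a protein-coding gene, with 95% Wilson intervals, by the lower of the 2 T1 −log10 q values. Red points are strong T1-only regions, grey points regions with a peak in all 4 libraries, and the number over each point is its number of regions. The red points lie between 0.893% and 4.70% and the grey ones between 17.4% and 31.5%.

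The 15 strongest regions, ranked by the lower of their 2 T1 values, lay near genes of signalling, adhesion and other functions. The first, with −log10 q of 70.5 and 68.5, lay at chr13:44564683-44565428 with no protein-coding gene within 50 kb, and T2 had a peak 7948 bp away. The second lay in Mcf2l, a guanine nucleotide exchange factor, with 65.7 and 51.4. Tenm4, a teneurin adhesion protein, followed with 48.0 and 48.2, at chr7:96790107-96790785. In all 3 the T1 summits were at most 17 bp apart.

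Signalling genes among the 15 strongest were Pde7b, Gabbr2, Jak2, Rbpj and Gnaq. The region in Pde7b, a cAMP phosphodiesterase, had −log10 q of 56.5 and 45.8, and that in Gabbr2, a GABA-B receptor subunit, had 39.5 and 42.9. Jak2, the kinase of cytokine receptors, had its region 9898 bp outside the gene at chr19:29241562-29241905, with 44.3 and 36.1. Rbpj is the DNA-binding factor of Notch signalling, and its region, at chr5:53509379-53509952, was 45827 bp outside the gene. Of these 5 it had the largest excess in T1 replicate 2, with 36.0 in T1 replicate 1 and 55.0 in T1 replicate 2. Gnaq encodes a G protein alpha subunit, and its region (37.9 and 35.0) lay 47970 bp away, on the start of a predicted gene.

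The remaining 7 of the 15 were near genes of varied function. Pabpc1l, a poly(A)-binding protein, had a region inside the gene with −log10 q of 50.7 and 45.6. Pdpn, a mucin-type glycoprotein that binds CLEC-2, had 49.8 and 42.1, with a T2 peak 523 bp from the region. Cwc27, a spliceosome factor, had 45.1 and 39.1, at 24021 bp outside the gene. Smyd3, a lysine methyltransferase, had 49.4 and 38.7. The Dnal1 region, in an axonemal dynein light chain gene, had 50.6 and 36.5. Sall2, a zinc-finger factor, had 52.1 and 36.1 and a T2 peak 775 bp away. Carmil1, a regulator of actin capping, had 42.9 and 35.2 and a T2 peak 624 bp away. Of all 15, 10 were in gene bodies and 11 had a T2 peak within 10 kb.

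The 584 regions with a gene were spread over 543 genes, 17 of them predicted models, and 507 genes had 1 region each. At 517 of the 543 genes another region was shared by all 4 libraries, and strong T2-only regions were present at 99 of the 543. Neither share was computed over all genes with regions. Of the 37861 strong T1 regions, 36356 were shared by all 4 libraries, so shared regions were common in general. An assigned region need not overlap its gene, so a shared one does not show that the gene was open in both groups. At 10 genes the strong T1-only region was the only region of any kind, and S100a8 was one. Another was Ifi209 (chr1:173634070-173634506, 14.3 and 14.9), an interferon-inducible gene of a family with close copies, where the nearest T2 peak was 122135 bp away.

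Thada was the gene with the most, 4 of its 18 regions, with 0 strong T2-only. Thada encodes a large protein linked to thermogenesis and to thyroid adenoma. The strongest by its lower value was at chr17:84380428-84380832, with 25.6 in T1 replicate 1 and 21.1 in T1 replicate 2, and the nearest T2 peak was 27593 bp away. A pair with 31.9 and 18.2 at one and 16.3 and 14.3 at the other stood 2403 bp apart, and the last had 10.2 and 10.6. Mcf2l had 3 of 12, Rin2, a RAB5-binding protein, 3 of 18, and Stxbp6, a SNARE-binding protein, 3 of 9, each with 0 strong T2-only regions. At Stxbp6 the pair inside the gene was isolated, with the nearest T2 peak 74254 and 60086 bp away. Without T1 replicate 2 the count at Thada was 7, and with the threshold raised to 20 there was 1 each at Thada and Mcf2l and 0 at Rin2 and Stxbp6.

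Another 32 genes had 2 regions each, 23 of them with 0 strong T2-only regions, and those given here were chosen after their values were seen. Strong T2-only regions were present at only 99 of all 543 genes. A count of 0 was thus usual, also for the 4 genes with 3 or 4 regions above. Runx1, a master regulator of blood stem and progenitor cells, had one at chr16:92641073-92641400 (29.4 and 32.2) and one at chr16:92675565-92676301 (22.5 and 15.7), beside 2 strong T2-only regions and 14 shared by all libraries. Id3, an inhibitor of E proteins, had 2 regions 5544 bp apart outside the gene, with 19.0 and 14.1 at the first and 13.7 and 16.8 at the second, and 1 strong T2-only region. Itpr1, an IP3 receptor, had 23.3 and 17.1 at its stronger region, and Cacna1d, a calcium channel, had 28.1 and 20.7. Slc24a3, a sodium-calcium exchanger, had 17.9 and 19.8. Rftn1, a lipid raft protein, had 31.1 and 31.9 at its stronger region. Sgms2, a sphingomyelin synthase, had 36.2 and 28.3, and Lgmn, a lysosomal protease, had 18.9 and 16.0.

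Strong T1-only regions near the lists of lineage genes were few, at most 4 in a list, and which list held the most depended on the libraries used. Without T1 replicate 1 the stem cell list held 7 and the granulocyte-monocyte and mature neutrophil and macrophage lists 4 each, while as reported the stem cell list held 3 and the other two 4 each. Regions are counted here out of those with both T1 values of at least 10, and near all protein-coding genes the share without a T2 peak was 1.69% (584 of 34621). For the mature neutrophil and macrophage list it was 4 of 42 (9.52%), at S100a8, S100a9 and Plbd1. Plbd1, a granule phospholipase, had 2, at chr6:136654342-136654857 (23.9 and 18.7) and chr6:136645532-136646028 (11.998 and 11.96). For the granulocyte-monocyte list it was 4 of 73 (5.48%), at Csf3r, Ly6c2, Mpo and Hdc, and Mpo and Hdc each had 1 strong T2-only region too. On the T2 side the exchanged rule gave 1 of 36 (2.78%) and 3 of 77 (3.90%) for these lists, and 4.18% near all protein-coding genes. Without T2 replicate 1 the mature neutrophil and macrophage list held 7.

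Csf3r is the receptor of G-CSF, and its region lay 4101 bp outside the gene at chr4:126018767-126019340, with −log10 q of 23.6 and 24.1. The Csf3r start site itself had a peak in all 4 libraries. Mpo, the granule enzyme myeloperoxidase, had a region inside the gene (chr11:87802549-87802881) near the threshold, with 11.2 and 11.2. Hdc, the histamine-forming enzyme of basophils, mast cells and granulocytes, had 10.3 and 15.1 and is also the only region of the mast cell list, which held 2 when T1 replicate 1 or T1 replicate 2 was left out. With the threshold raised to 20, the mature neutrophil and macrophage list held 0. Strong T1-only regions were at 3 of its 20 genes, and the part that more mature cells in the sorted fraction might have in them was not tested.

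The other lists held between 0 and 3. The erythroid list had 3 of 49 regions (6.12%), at Ermap, an erythrocyte membrane protein (24.2 and 16.0), and 2 of them at Nfia, a factor of erythroid choice. The Nfia regions had 20.4 and 13.2, and 23.8 and 11.0, and Nfia also counts among the Bcl11a partners. On the T2 side the erythroid list had 3 of 65 (4.62%), and with the threshold raised to 20 it held 0 T1-only regions. Stem cell genes had 3 of 138 (2.17%), the pair at Runx1 and 1 at Erg, an ETS factor of stem cells (13.7 and 10.9). This list held 7 when either T1 library was left out and 5 when either T2 library was. Genes of Bcl11a and its partners had 3 of 83 (3.61%), the pair at Nfia and 1 in Sox6, a fetal globin repressor (12.4 and 11.4). Thy1 (11.998 and 13.2) was the only one of 54 near T and NK genes, where 1 strong T2-only region was also assigned to it, and this list held 4 without T2 replicate 2 and 2 without T1 replicate 2. The lymphoid priming list had 0 of 59, the B lineage list 0 of 36 and the dendritic list 0 of 45. Megakaryocyte genes had 0 of 37, stromal genes 0 of 28 and housekeeping genes 0 of 25. Of these 6 lists, all but the megakaryocyte list held 1 or 2 when some single library was left out. Of the genes of other tissues, Cdh5, an endothelial cadherin, had 1 of 35 (12.9 and 17.5; 3 without T2 replicate 1, 2 without T2 replicate 2), and Cdh1, the epithelial cadherin, gave 1 of 15 (24.6 and 20.3). These counts are descriptions of the calls that chose the regions, and they are too small to set one list apart from another or from the 1.69% of all protein-coding genes.

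The Bcl11a gene itself had no strong T1-only region, but 1 T1-only region under the threshold was assigned to it, with −log10 q of 3.602 and 3.05. Within 1 Mb of it, 1 of 36 strong T1 regions was T1-only, at chr11:24395569-24395797, 222011 bp from the gene, with −log10 q of 16.6 and 18.8. The exchanged rule also gave 1. Over the genome 1.82% of strong T1 regions were T1-only, and the counts at this locus and the next lie near that share. Gt(ROSA)26Sor is a locus widely used for mouse transgenes, though the labels do not place the iMOS allele. Within 1 Mb of it 2 of 56 were T1-only, at Irak2, a kinase of Toll-like receptor signalling (21.6 and 21.6), and Atp2b2, a calcium pump (10.9 and 11.96), at 600156 and 708502 bp.

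Most regions had T2 peaks in their neighbourhood. The nearest T2 peak was between 26 bp and 1103081 bp away, with a median of 4916 bp, and it lay within 10 kb for 500 regions (72.7%). For 27 regions (3.92%) it lay within 500 bp and for 76 (11.0%) within 1 kb. For the strong T2-only regions the median distance to a T1 peak was 5996.5 bp, and 8.35% had one within 1 kb. At the other end, 15 regions had no T2 peak within 50 kb and 7 none within 100 kb. The most isolated, at chr8:49946887-49947322 (21.7 and 20.5), had no protein-coding gene within 50 kb.

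Along the genome the regions were scattered. Chromosome 2 had the most, 63, and the share of strong T1 regions without a T2 peak was highest on chromosome 8, at 2.59% (95% Wilson interval 1.97 to 3.39, 50 of 1934). It was lowest among the autosomes on chromosome 11, at 0.960% (0.665 to 1.38, 28 of 2917). On the X chromosome it was 10 of 690 (1.45%). Of 668 pairs of neighbouring regions, 12 were within 10 kb and 42 within 50 kb of each other. The closest pair, 299 bp apart on chromosome 2 (chr2:73037371-73037914 and chr2:73038214-73038934), had no protein-coding gene within 50 kb. Windows of 1 Mb held at most 5, and 4 windows did. One held the regions of Thada, one those of Rin2 and Slc24a3, and one those of Plbd1 and of Atf7ip, a chromatin factor. The other lay on chromosome 3, with single regions at Zfp704 and Pag1.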

How the data were processed

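ATAC-seq peaks of 4 libraries of sorted MPP3 cells were used, 2 titled T1 and 2 titled T2. The submitters' processing notes name Bowtie2, SAMtools, MACS2 and mm10. Versions, settings, filters, any transposase shift and the depth are not given in the sources used. Peaks were called per library, since each deposited list carries 1 name prefix of its own. The deposited fold value is a ratio of the peak summit to local background. The deposited −log10 p and −log10 q measure its significance, and all −log10 q values were at least 2. The deposited score was used only to check the columns, and the deposited summit offset gave summit positions.

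Peaks on 21 chromosomes were joined where they shared at least 1 bp, and a region's value in a library is the highest −log10 q of its peaks. A region belonged to a protein-coding gene when it overlapped the gene body or when that gene was the nearest within 50 kb. Genes and promoters came from RefSeq tables on GRCm38.p6. A script searched 12 motifs on both strands of 300-base promoter windows; the strict CEBP motif is contained in the wider one, and the IRF and ETS-IRF motifs share bases. Shares carry 95% Wilson intervals, which cover counting error over regions only. No test compared T1 with T2. The counting code was checked on simulated regions that stood well apart, none with values on both sides of the threshold. That check does not cover the joining of close neighbours or calls that straddle the threshold. Python 3.11.15, pandas 2.3.3, NumPy 2.4.6, SciPy 1.17.1 and Matplotlib 3.10.9 were used.

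The regions, the 15 gene lists and the settings were chosen with earlier results of these data known. Named were the 15 strongest regions, regions of genes with at least 3, up to 4 regions per list, those within 1 Mb of Bcl11a or Gt(ROSA)26Sor, and 3 on either side of the threshold. Other named genes were chosen after their values were seen. Alternatives changed the threshold, the overlap, the list length, the distances and the libraries used.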

Additional observations from a re-analysis of the deposited data

How the results depend on the processing

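The number of strong T1-only regions depended on the settings, and the T2-only number was larger under every setting run, by 1.94 to 4.80 times. At a threshold of 5 on −log10 q there were 1425 T1-only and 4372 T2-only regions, and at 20 there were 143 and 348. With each list shortened to the strongest peaks of the shortest list, T1-only regions numbered 1083 and T2-only regions 2149. Leaving out 1 library at a time gave 984 to 1565 T1-only and 3038 to 4722 T2-only regions, the most T1-only regions without T1 replicate 2 and 1213 without T2 replicate 1. Requiring no peak of the other group within 1 kb, coverage of 0.5 of the region or windows around summits kept both counts within 1.5 times the reported ones. The share at gene ends was 1.60% with a window of 500 bp, 13.1% with 3 kb, 1.40% at a threshold of 20, 5.53% with coverage of 0.5 and 10.5% with summit windows, while the gene body share stayed between 53.4% and 58.7%. No paired analysis was possible because the results come from peak calls without a test. Motif windows around peak summits were not run, since no genome sequence was used here. Read depth is unknown, so a missing T2 peak sets no upper limit on accessibility.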

Other observations

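Of the 688 strong T1-only regions, 10 (1.45%, 95% Wilson interval 0.791 to 2.65) lay within 10 kb of a miRNA hairpin listed by RefSeq. The share was 1.71% of all 77914 regions, 2.02% of shared regions past the same T1 threshold and 1.11% of strong T2-only regions. The strongest of the 10 was 8067 bp from Mir7050, near Fxyd5, with −log10 q of 40.5 in T1 replicate 1 and 32.0 in T1 replicate 2. The nearest was 546 bp from Mir6905, near Med23 (33.0 and 24.5). Mir34a, a p53-induced miRNA, had one 7560 bp away (27.1 and 23.9), and Mir339 one 3009 bp away (21.0 and 14.0). These regions were chosen after their values were seen. On contigs outside the 21 chromosomes, 19 regions were joined, of which 10 had a peak in all 4 libraries, 0 were strong T1-only and 1 was strong T2-only.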
